A study of Mus musculus with 3 samples.

Results

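The genes described here are 47 that encode chaperones of the cytosol and the mitochondrion, their co-chaperones, and the heat shock factors Hsf1 and Hsf2. They were taken by gene symbol from a list of names, out of 36609 genes read on the arrays, of which 25158 had a RefSeq symbol. All 47 were on the array, with 105 probes between them. The read probe was well above background, by the scanner software's own call, on all 3 arrays for 45 of them, and on none for Hspb8 and Serpinh1.

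Cells from the spleen of MRL/MpJ males, 6 months old, were freed of red cells by lysis, cultured, and kept for 3 h with 1 of 3 additions. The PBS group received phosphate-buffered saline. The MRL/MpJ urine group received urine of MRL/MpJ males aged 6 months, the strain the cells came from. The lpr urine group received urine of MRL/MpJ-Faslpr/lpr males of the same age, which carry a defective Fas gene and develop a lupus-like disease. The cells themselves carried an intact Fas gene in all 3 groups. Urine of 6 mice per strain was pooled and passed through a 0.22 µm filter, so that each addition stands for 1 pool. There was 1 array per group, so no difference below has a replicate check, a p-value or a standard error. A treatment, a culture well and an array cannot be told apart.

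Chaperones bind proteins that are not yet folded or have lost their fold. HSP70 proteins hold exposed stretches of a client in a cycle driven by ATP, HSP40 proteins deliver the client and start that cycle, and nucleotide exchange factors such as the HSP110 and BAG proteins end it. HSP90 takes over clients from HSP70 with the help of adaptor proteins, small heat shock proteins hold clients without using ATP, and the CCT ring folds actin and tubulin in a closed chamber. Many of these genes are switched on when the heat shock factor HSF1 binds the heat shock element, repeated GAA and TTC units in their promoters, while others are made constantly in growing cells.

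Values are given as scaled signal, the processed signal of a probe divided by the 75th percentile of that array, and as the log2 difference of 2 such values. That percentile stood at 157.5 intensity units for PBS, 86.6 for MRL/MpJ urine and 75.7 for lpr urine, while 8 spike-in transcripts, added in fixed amounts, stayed at nearly the same signal. Scaling to the spike-ins would therefore lower every difference from PBS by 0.90 after MRL/MpJ urine and by 0.99 after lpr urine on the log2 scale. The same amount of RNA, 0.05 µg, was labelled for each array, and what lowered the percentile was not tested. For a given gene, less RNA per cell and fewer cells of a type cannot be told apart in such bulk RNA. Repeated spots within an array gave a difference an SD of 0.0539. Of the 860 values behind it, 777 were for signals over 11 on the log2 scale. The SD was 0.0945 for signals of 8 to 11, 0.122 for 5 to 8 and 0.261 under 5. The software's own error model gave a median error of 0.204 for a member's difference, and none of these figures contains the spread between wells. Where a pair of differences from PBS is given, the first is for MRL/MpJ urine and the second for lpr urine. A gene counted as higher or lower when it differed at least 2-fold and was well above background on both arrays.

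With MRL/MpJ urine, 14 of the 45 measured chaperone genes were higher than with PBS and 2 were lower. Among all measured genes with a RefSeq symbol, 14.9% were higher and 12.0% were lower. With lpr urine 13 were higher and 3 lower, against 16.2% and 13.0% of all genes. As a share, 31.1% of the members were higher after MRL/MpJ urine and 28.9% after lpr urine. Their median difference was 0.27 after MRL/MpJ urine and 0.33 after lpr urine, and that of all genes was 0.02 and 0.03. Among the 3730 other genes whose level lay in the middle range of the members', 9.57% were higher after MRL/MpJ urine and 10.2% after lpr urine, with medians of -0.15 and -0.17. The members were chosen with earlier results of these data known, so their shares are a description and not independent evidence of enrichment.

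The split depended on the scaling. Under spike-in scaling 6 members were higher and 18 lower with MRL/MpJ urine, when 4.70% of all genes were higher and 44.9% lower. With lpr urine that scaling left 6 higher and 19 lower, against 4.61% and 48.5% of all genes. Scaling to the median of each array gave 10 higher and 7 lower with MRL/MpJ urine, when 9.34% of all genes were higher and 22.7% lower. With lpr urine it gave 9 higher and 6 lower, against 9.62% and 24.2% of all genes. The members' median turned to -0.63 and -0.66 under spike-in scaling, above the -0.88 and -0.96 of all genes. The 6 genes that stayed higher with both urines under spike-in scaling were Hspa1a, Hspa1b, Hspa4, Hsph1, Hsp90aa1 and Bag3. These comparisons share the PBS array, so the likeness of the urines is not independent evidence.

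**Figure D1:**
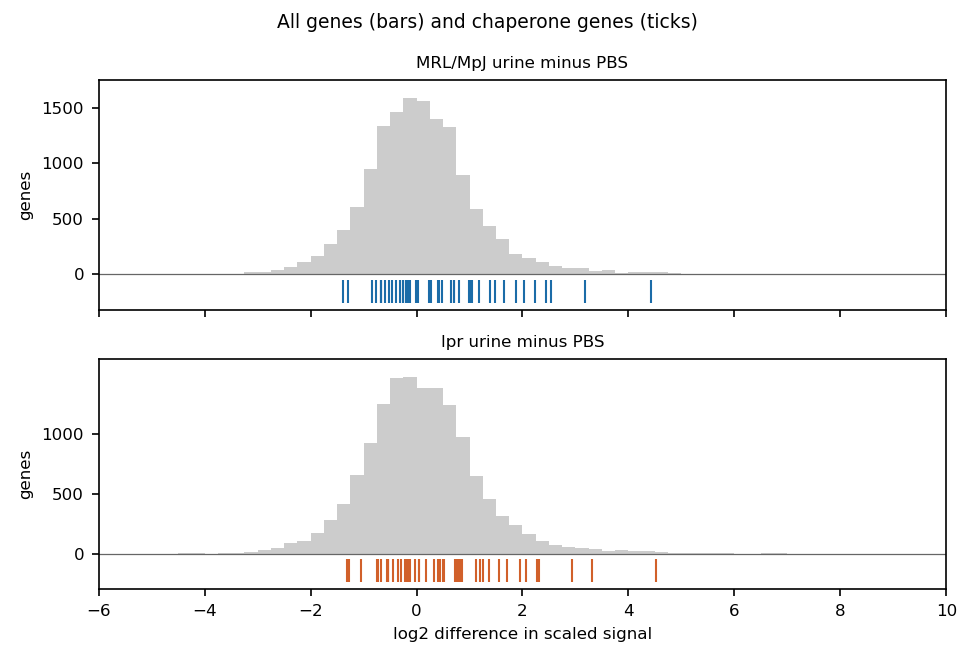
Each panel is a histogram of log2 differences from PBS over all genes with a RefSeq symbol measured on both arrays (bars, number of genes in steps of 0.25), with the 45 measured chaperone genes as ticks below. Most ticks lie within 1 log2 unit of 0, and a tail of members reaches 4.42 after MRL/MpJ urine and 4.52 after lpr urine.

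The HSP70 and HSP110 genes had the highest class median against PBS. Of 9 genes, 7 were higher and 1 was lower with MRL/MpJ urine, and 6 were higher and 1 lower with lpr urine. Of all genes, 14.9% and 16.2% were higher and 12.0% and 13.0% lower in the same order. When read from RefSeq mRNA probes, 5 of the 9 were higher and 1 lower with either urine. The class median was 1.65 after MRL/MpJ urine and 1.71 after lpr urine. It stayed above 0 under every processing setting tried, at 0.75 and 0.72 under spike-in scaling.

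Hspa1b and Hspa1a encode the stress-inducible HSP70, held low in unstressed cells, from a pair of neighbouring genes on chromosome 17. Hspa1b had a scaled signal of 2.88 with PBS, 61.6 after MRL/MpJ urine and 66.2 after lpr urine (probe at chr17:35093374-35093405, mm9). That was 21.4-fold higher with MRL/MpJ urine, a log2 difference of 4.42, and 4.52 with lpr urine, the largest difference of any member on the probe read. Hspa1a had a scaled signal of 10.5 with PBS, 95.5 after MRL/MpJ urine and 104.7 after lpr urine (chr17:35106766-35106825, mm9). Its log2 difference was 3.19 after MRL/MpJ urine and 3.32 after lpr urine. Both urine arrays were far above the PBS array for either gene. The processed signal was higher before any scaling too, 454.1, 5337 and 5014 intensity units for Hspa1b in the same order. The copies are nearly identical in sequence, and how far each probe also reads the other copy was not tested.

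Their promoters, given by RefSeq on GRCm38.p6, show how alike the pair is. The 250 bases before the start of each gene are printed, and both carry the same short heat shock element. Among the members that element occurred on both sides of the 2-fold line, as given below. Capitals mark a 2-unit element, whose first base lies 104 bases before the start in both, at chr17:34972157-34972406 (minus strand) for Hspa1a and chr17:34959239-34959488 (minus strand) for Hspa1b.
Hspa1a: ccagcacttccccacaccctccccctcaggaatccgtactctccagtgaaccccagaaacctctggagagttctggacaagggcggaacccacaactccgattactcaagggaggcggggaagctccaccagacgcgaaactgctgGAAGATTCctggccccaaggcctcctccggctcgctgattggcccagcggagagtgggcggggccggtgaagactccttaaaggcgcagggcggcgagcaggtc
Hspa1b: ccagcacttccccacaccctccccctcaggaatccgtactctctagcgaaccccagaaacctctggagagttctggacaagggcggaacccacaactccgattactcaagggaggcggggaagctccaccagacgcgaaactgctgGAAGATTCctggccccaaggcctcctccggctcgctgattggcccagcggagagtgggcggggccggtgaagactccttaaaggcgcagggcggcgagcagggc
The windows carry the same base at 247 of 250 positions.

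Hsph1 encodes HSP110, an exchange factor for HSP70 that also dissolves aggregates. Its scaled signal was 5.39 with PBS, 22.1 after MRL/MpJ urine and 22.6 after lpr urine (chr5:150419744-150419803, mm9). The log2 difference was 2.04 and 2.07, with both urine arrays at nearly the same level. Hspa8, the constitutive HSC70 that also uncoats clathrin vesicles, went from 71.6 with PBS to 225.3 after MRL/MpJ urine and 234.6 after lpr urine (chr9:40612755-40613050, mm9). That was 3.15-fold with MRL/MpJ urine, a log2 difference of 1.65, and 1.71 with lpr urine.

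The 4 probes of Hspa8 lie along 1 transcript and all of them were measured, so their sequences are printed in order from the 5′ side as the array file gives them, in lower case because no part is singled out.
Hspa8 probe at chr9:40610620-40610679: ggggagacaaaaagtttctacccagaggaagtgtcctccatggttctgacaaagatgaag
Hspa8 probe at chr9:40611362-40611421: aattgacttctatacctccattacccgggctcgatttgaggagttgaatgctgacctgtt
Hspa8 probe at chr9:40611841-40611900: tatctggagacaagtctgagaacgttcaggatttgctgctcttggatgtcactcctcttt
Hspa8 probe at chr9:40612755-40613050: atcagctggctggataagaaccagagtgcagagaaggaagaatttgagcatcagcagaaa
Their log2 differences with MRL/MpJ urine were 2.14, 2.08, 1.93 and 1.65 in that order, and with lpr urine 2.18, 2.13, 1.99 and 1.71. All 4 were past 2-fold with either urine, and the difference was smallest on the probe nearest the 3′ side, which is also the brightest and the one read for the gene.

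Hspa4, another HSP110 relative and exchange factor, read 13.1 with PBS, 76.2 after MRL/MpJ urine and 99.8 after lpr urine on the probe that the rule selects (chr11:53113062-53113121, mm9). The log2 difference of that probe was 2.54 and 2.93. It is designed on a cDNA clone and lies 35002 bases or more upstream of the other 3 probes. Those read between -0.39 and 0.27 with MRL/MpJ urine and between -0.06 and 0.59 with lpr urine, all within 2-fold. The brightest of them had a scaled signal of 42.4 with PBS, 32.3 after MRL/MpJ urine and 40.6 after lpr urine. The value of Hspa4 therefore belongs to the upstream probe and not to the RefSeq mRNA, for which the difference was -0.39 and -0.06.

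Hspa2, best known from germ cells, read 0.486 with PBS, 0.985 after MRL/MpJ urine and 1.26 after lpr urine (chr12:77507769-77507828, mm9). Its log2 difference was 1.02 and 1.38. Hspa4l, an HSP110 relative induced by osmotic and heat stress, read 1.07, 2.22 and 1.78 in the same order of arrays (chr3:40562457-40562516, mm9). It was just past 2-fold with MRL/MpJ urine (1.05) and short of it with lpr urine (0.73). Its other 3 probes, on the RefSeq mRNA, were all within 2-fold, from -0.24 to 0.39 with MRL/MpJ urine. Both genes lie near the threshold, where Dnaja4 at 0.98 is the nearest member outside it with MRL/MpJ urine.

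Hspa13 and Hspa14 went the other way within the class. Hspa13, a microsomal HSP70 relative, read 0.878 with PBS, 0.336 after MRL/MpJ urine and 0.354 after lpr urine (chr16:75755568-75755627, mm9). Its log2 difference was -1.39 and -1.31, so that both urine arrays were more than 2-fold below PBS. The signal was only 29.1 and 26.8 intensity units with the urines, and with normexp background correction Hspa13 was within 2-fold of PBS. Hspa14, which acts at the ribosome on new chains, was lower but within 2-fold on its read probe, at -0.59 and -0.54. All 5 of its probes were below 0 with either urine, and with lpr urine 2 of the others were past 2-fold, at -1.19 and -1.13.

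**Figure D2:**
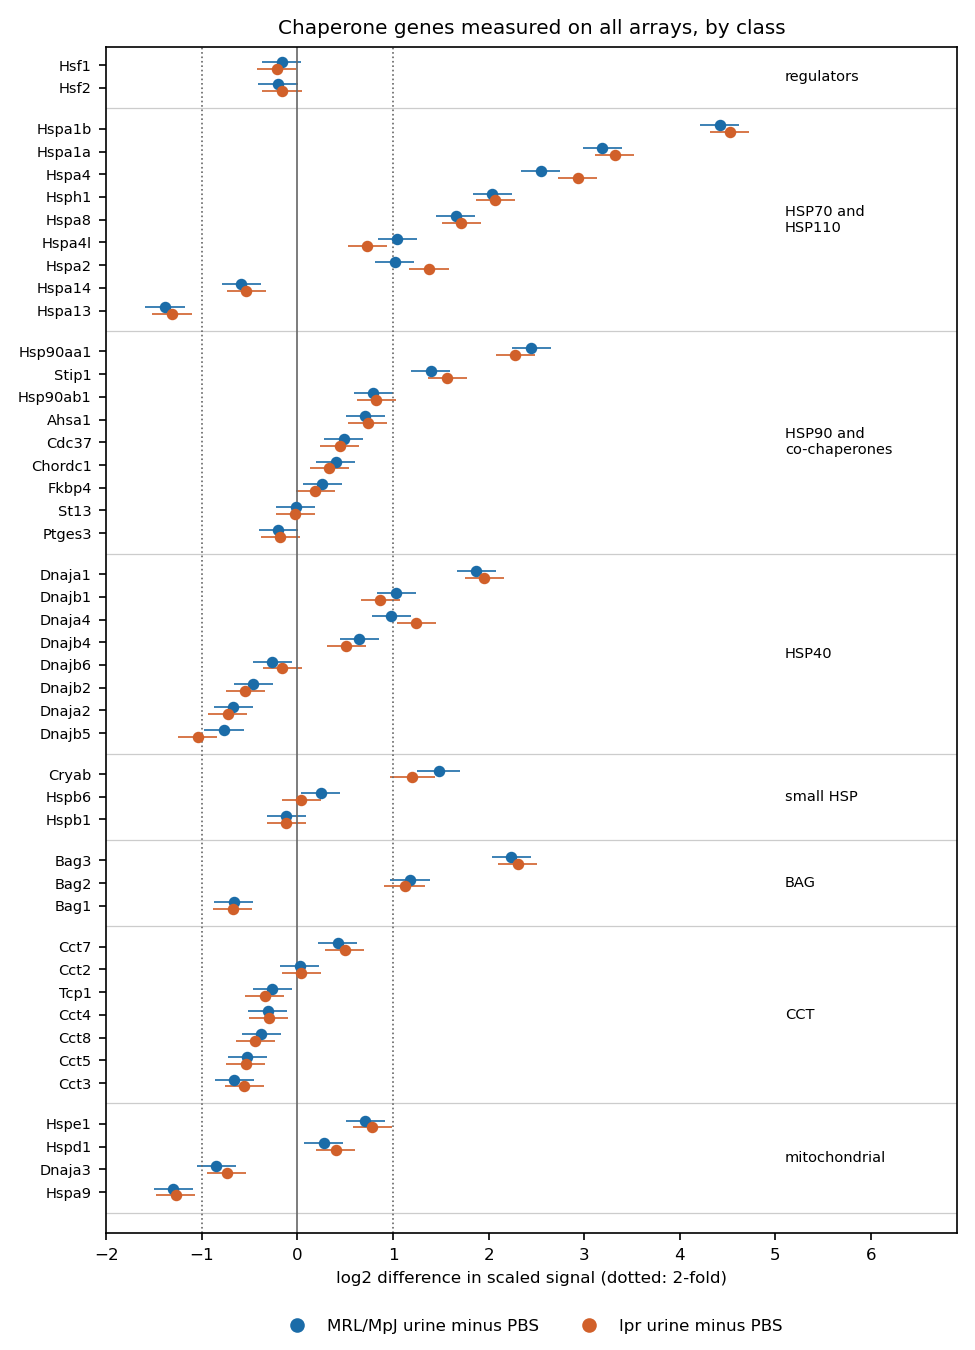
The log2 difference in scaled signal from PBS of the 45 measured chaperone genes, grouped by class, with MRL/MpJ urine in blue and lpr urine in orange. Bars are the scanner software's error for the difference (median 0.204) and hold no spread between wells. HSP70 genes reach furthest to the right (Hspa1b, 4.42 and 4.52), all 7 CCT genes lie inside the dotted 2-fold lines, and the 2 urines lie close together for each gene.

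Among HSP90 and its co-chaperones, 2 of 9 genes (22.2%) were higher with either urine and none was lower. Of all genes, 14.9% were higher after MRL/MpJ urine and 16.2% after lpr urine, and 12.0% and 13.0% were lower. The class median was 0.49 after MRL/MpJ urine and 0.44 after lpr urine, and it turned to -0.42 and -0.55 under spike-in scaling. Hsp90aa1, the inducible HSP90 alpha, had a scaled signal of 43.2 with PBS, 235.5 after MRL/MpJ urine and 209.7 after lpr urine (chr12:111932511-111932796, mm9). The log2 difference was 2.45 and 2.28. Stip1, the adaptor HOP that links HSP70 to HSP90, read 4.00 with PBS, 10.5 after MRL/MpJ urine and 11.8 after lpr urine (chr19:7095433-7095492, mm9). This came to 1.39 and 1.57 on the log2 scale, with the other measured probe at 2.13 and 1.61.

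Both measured probes of Hsp90aa1 are printed as the array file gives them, since they place the difference at 2 points of the mRNA.
Hsp90aa1 probe at chr12:111933318-111933377: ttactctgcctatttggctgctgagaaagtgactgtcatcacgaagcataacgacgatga
Hsp90aa1 probe at chr12:111932511-111932796: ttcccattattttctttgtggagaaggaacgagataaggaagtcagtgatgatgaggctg
The first gave a log2 difference of 2.69 after MRL/MpJ urine and 2.49 after lpr urine, close to the 2.45 and 2.28 of the second, which was read for the gene. A probe further downstream was not well above background on any array.

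Hsp90ab1, the constitutive HSP90 beta, was higher but within 2-fold. Its scaled signal was 127.2 with PBS, 220.6 after MRL/MpJ urine and 225.3 after lpr urine. The log2 difference was 0.79 and 0.82, so the alpha gene stood further from PBS than the beta gene. Under spike-in scaling Hsp90ab1 came to -0.11 and -0.16, and Hsp90aa1 to 1.54 and 1.29. Ahsa1, which speeds up the ATPase of HSP90, was at 0.71 and 0.74. Cdc37, the adaptor for protein kinases, was at 0.49 and 0.44. Chordc1 and the immunophilin Fkbp4 were between 0.19 and 0.40. St13 (HIP) was at -0.02 with either urine, and Ptges3 (p23) at -0.20 and -0.18.

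The HSP40 genes were mixed. Of 8, 2 were higher and none lower with MRL/MpJ urine, and 2 were higher and 1 lower with lpr urine. The share higher was 25% with either urine, against 14.9% and 16.2% of all genes. The class median was 0.19 and 0.18. It turned negative under median and spike-in scaling and was near 0 with normexp background correction. Dnaja1, a main HSP40 partner of HSC70, had a scaled signal of 25.7 with PBS, 93.9 after MRL/MpJ urine and 99.6 after lpr urine (chr4:40679954-40680014, mm9). The log2 difference was 1.87 and 1.95. Dnajb1, the classical heat-induced HSP40, read 18.0 with PBS, 36.8 after MRL/MpJ urine and 32.7 after lpr urine (chr8:86135660-86135719, mm9). At 1.03 with MRL/MpJ urine it was just past 2-fold, and at 0.87 with lpr urine just short of it.

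Dnaja4 read 1.45 with PBS, 2.87 after MRL/MpJ urine and 3.44 after lpr urine (chr9:54564061-54564120, mm9). It was past 2-fold with lpr urine alone, at 1.25 against 0.98. Its other probe was past 2-fold with both urines, at 2.10 and 1.83, on a PBS signal of only 11.7 intensity units. For Dnajb1, Dnaja4 and Hspa4l the urines fell on different sides of the threshold, while they differed from each other by 0.32 or less in size on the log2 scale.

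Dnajb5 read 1.81 with PBS, 1.06 after MRL/MpJ urine and 0.879 after lpr urine (chr4:42971494-42971553, mm9). At -0.77 and -1.04 on the log2 scale, it was past 2-fold with lpr urine alone. A second measured probe on the same RefSeq mRNA went the other way, at 1.34 and 1.43, but was dimmer. Dnajb4 was within 2-fold, at 0.65 and 0.51. Dnaja2, Dnajb2 and Dnajb6, the last known for holding back polyglutamine aggregates, were between -0.73 and -0.16.

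**Figure D3:**
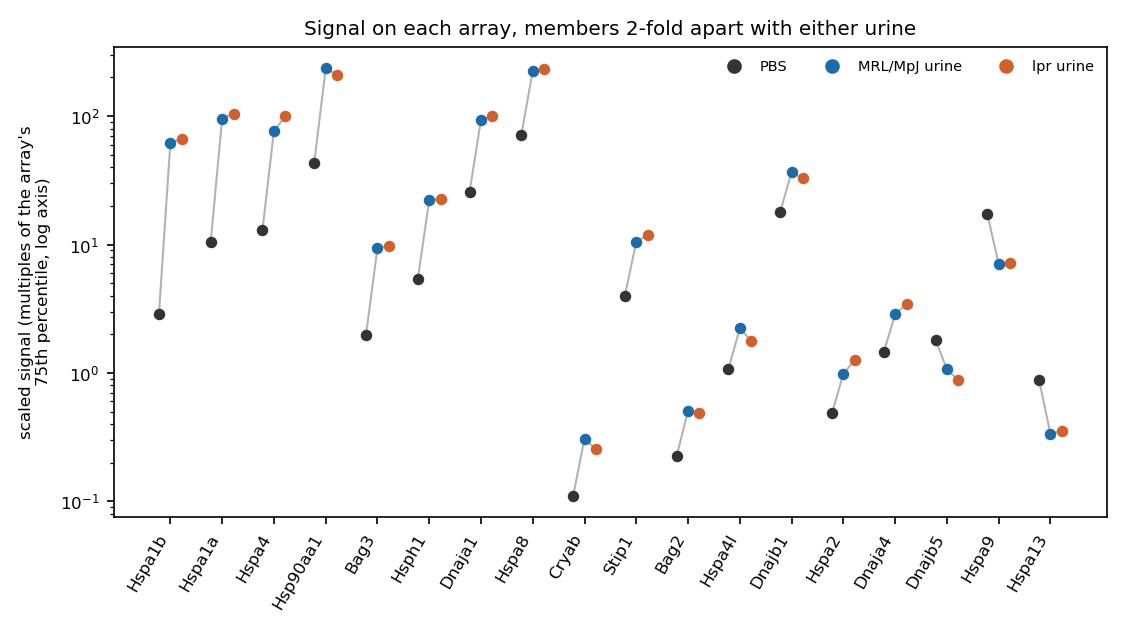
Scaled signal (log axis) on the PBS (black), MRL/MpJ urine (blue) and lpr urine (orange) arrays for the 18 chaperone genes at least 2-fold from PBS with either urine, in order of the log2 difference with MRL/MpJ urine. Each point is 1 array. The urine points lie together and apart from PBS, from Hspa1b (2.88 with PBS and 61.6 with MRL/MpJ urine) to Hspa13 (0.878 and 0.336).

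Of the 4 small heat shock protein genes, 3 were measured and 1 was higher with both urines, when 14.9% and 16.2% of all genes were. Cryab, alpha B crystallin, which binds unfolding proteins, read 0.110 with PBS, 0.308 after MRL/MpJ urine and 0.254 after lpr urine (chr9:50564566-50564625, mm9). The log2 differences were 1.48 and 1.20. The signal was near the floor of the array, at 17.4 intensity units with PBS, and with normexp background correction Cryab was within 2-fold of PBS. Hspb1, the mouse HSP25, was at -0.12 with either urine, and Hspb6 at 0.24 and 0.04 on its read probe. The other Hspb6 probe, also on a RefSeq mRNA, was past 2-fold at 1.23 and 1.34, on a PBS signal of only 12.6 intensity units. Hspb8, the partner of BAG3, was not well above background on any array and has no difference. The class median, 0.24 and 0.04, turned negative under median and spike-in scaling.

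Of the 3 BAG genes, exchange factors that release clients from HSP70, 2 were higher with both urines. The shares higher among all genes were 14.9% and 16.2%. Bag3, which steers clients to autophagy and is itself a heat shock gene, read 1.98 with PBS, 9.36 after MRL/MpJ urine and 9.81 after lpr urine (chr7:135690420-135690479, mm9). The log2 difference was 2.24 and 2.31. Bag2 read 0.225, 0.508 and 0.490 in the same order (chr1:33813637-33813696, mm9), a difference of 1.17 and 1.12 on a probe of an Ensembl transcript. Its probe on the RefSeq mRNA was at -1.48 and -1.60, so the direction of Bag2 depends on the probe. Bag1, which also binds the proteasome, was at -0.67 with either urine. The BAG median was 1.17 and 1.12 and turned negative when the probes of a gene were averaged or when RefSeq mRNA probes were used.

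The 7 CCT genes, Tcp1, Cct2, Cct3, Cct4, Cct5, Cct7 and Cct8, encode most subunits of the ring that folds actin and tubulin. None of these 7 was past 2-fold with either urine under 75th percentile scaling. Cct6a, a further subunit gene that is not a member, is given below with the other folding genes. Their median was -0.31 after MRL/MpJ urine and -0.34 after lpr urine, and it was below 0 under every setting, at -1.21 and -1.33 under spike-in scaling. Cct3 was lowest, at -0.66 and -0.56, and its 3 probes lay between -0.70 and -0.66 with MRL/MpJ urine. Cct7 was highest, at 0.42 and 0.50. Cct2 was at 0.02 and 0.04, with a scaled signal of 39.3 with PBS, 39.9 after MRL/MpJ urine and 40.4 after lpr urine.

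The mitochondrial chaperones did not move as 1 group. Hspa9, mortalin, the HSP70 that pulls proteins into the mitochondrion, had a scaled signal of 17.3 with PBS, 7.04 after MRL/MpJ urine and 7.16 after lpr urine. Its log2 difference was -1.30 and -1.27, and its other probe was at -0.95 and -0.84. Hspd1 and Hspe1 encode the HSP60 ring and its HSP10 lid from opposite strands. Hspe1 read 42.6 with PBS, 69.7 after MRL/MpJ urine and 73.4 after lpr urine, a difference of 0.71 and 0.79 that stayed within 2-fold. Hspd1 was at 0.27 and 0.40. Dnaja3, the mitochondrial HSP40 known as TID1, was at -0.85 and -0.74. The class median of -0.29 and -0.17 was below 0 under every setting, though 2 of the 4 genes were above 0 with 75th percentile scaling.

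The heat shock factor genes stayed within 2-fold. Hsf1, the factor that switches on stress-induced chaperone genes, was at -0.16 after MRL/MpJ urine and -0.22 after lpr urine. Its scaled signal was 8.68 with PBS, 7.75 after MRL/MpJ urine and 7.47 after lpr urine. Hsf2 was at -0.20 and -0.16. Under spike-in scaling Hsf1 came to -1.07 and -1.21 and Hsf2 to -1.10 and -1.15, past 2-fold lower. That scaling put 44.9% and 48.5% of all genes past 2-fold lower. HSF1 is controlled mainly through its protein, which arrays do not measure. Serpinh1, HSP47, the collagen chaperone of the endoplasmic reticulum, was not well above background on any array.

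Under 75th percentile scaling and 6 other processing settings, Hspa1a, Hspa1b, Hsph1, Hsp90aa1 and Bag3 were higher and Hspa9 was lower with both urines. The other 12 genes named at 2-fold lost that under at least 1 setting or with 1 of the urines.

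**Figure D4:**
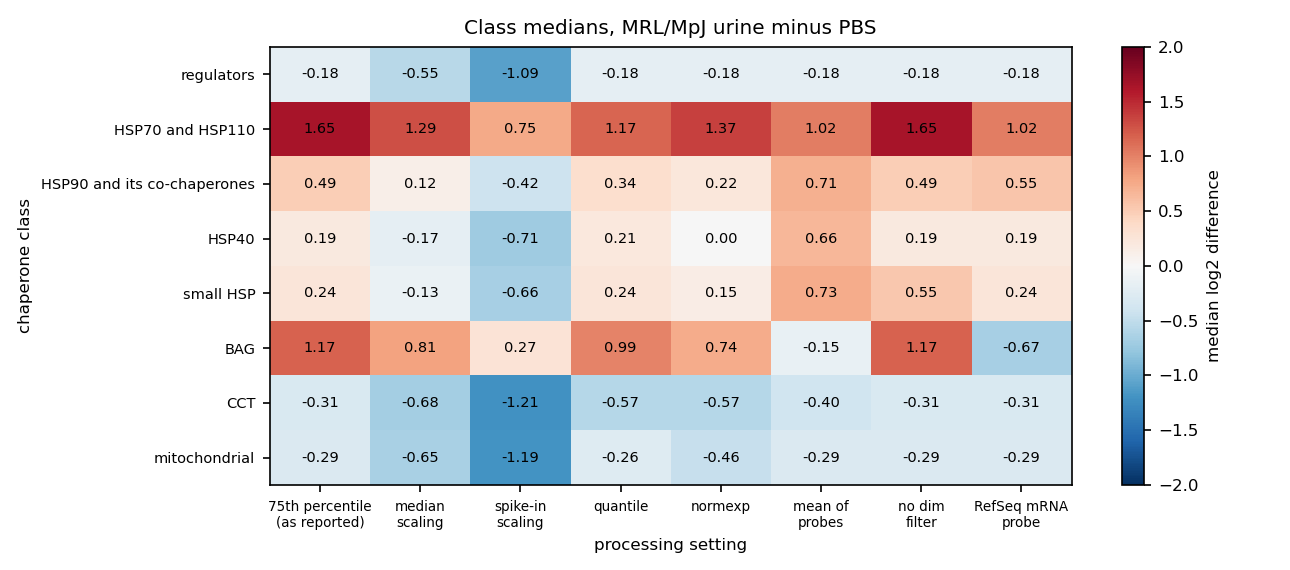
Median log2 difference of each class between MRL/MpJ urine and PBS (numbers and colour) under 8 processing settings (columns), over the members measured under each. HSP70 and HSP110 stay above 0 in each column (0.75 with spike-in scaling), CCT and the mitochondrial genes stay below 0, and HSP90, HSP40, small HSP and BAG change sign in at least 1 column.

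Genes with several probes give a check within the array. Of 26 members with several measured probes, 9 were past 2-fold on the read probe with MRL/MpJ urine. For Hspa8, Hsph1, Hsp90aa1, Stip1 and Dnaja1 every measured probe was past 2-fold the same way. For Hspa4, Hspa4l, Bag2 and Hspa9 at least 1 probe was within 2-fold or went the other way. With lpr urine, Dnaja4 joined the first group, and Dnajb5 took the place of Hspa4l in the second.

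The size of a difference varied along some genes. The 3 probes of Dnaja1 gave 1.87, 3.87 and 5.71 with MRL/MpJ urine from the 5′ to the 3′ side, and 1.95, 3.69 and 5.55 with lpr urine. The last of them, 3547 bases downstream of the first, had a scaled signal of 0.105 with PBS and 5.50 with MRL/MpJ urine. Hsph1 ran the other way, at 3.88, 3.58 and 2.04. The Dnaja1 probes at 3.87 and 5.71 had PBS signals of only 14.6 and 16.5 intensity units. The Hsph1 probe at 3.88 had 18.3. These PBS signals are near the floor of the array, which limits the size of these differences. The most downstream probe of Dnajb4 was not well above background with PBS and read 2.63 after MRL/MpJ urine and 1.78 after lpr urine. Its 2 further probes past 2-fold were at 2.42 and 2.21 with MRL/MpJ urine, on PBS signals of 23.5 and 19.9 units. A Cct4 probe on a cDNA clone, 11925 bases downstream of the first, was at 1.79 and 1.35 while its other 3 were below 0. One of the 5 Dnajb6 probes was at -1.99 and -1.97, with the others between -0.26 and 0.22. Which exon, intron or UTR these probes lie in was not analysed here.

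**Figure D5:**
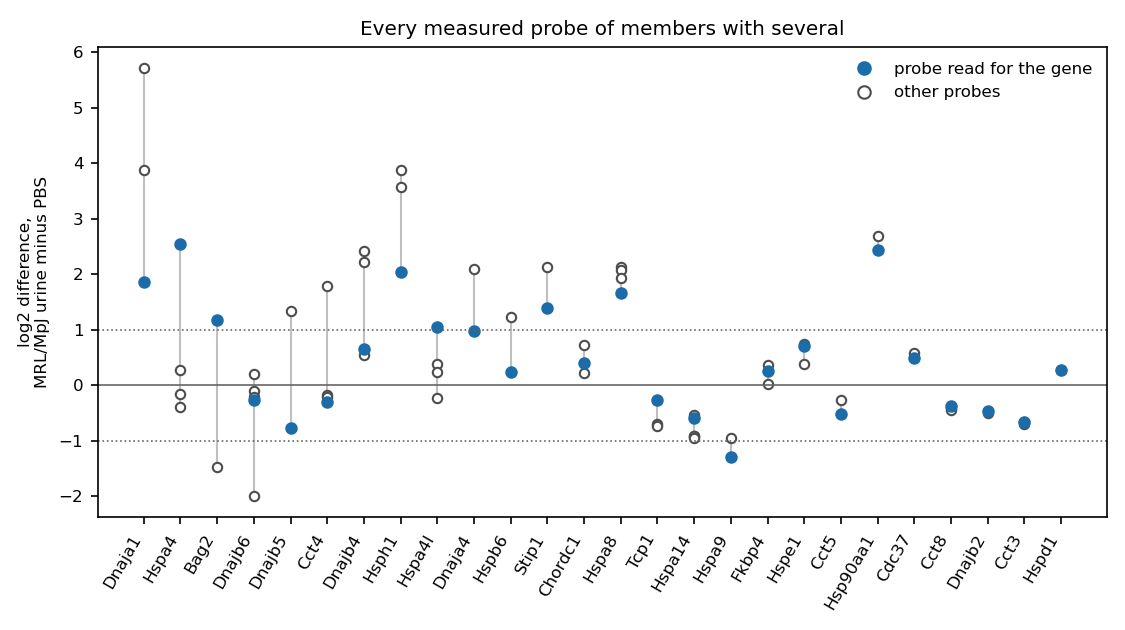
Log2 difference between MRL/MpJ urine and PBS of every measured probe of the 26 chaperone genes with several, ordered by the span of their probes. The probe read for the gene is filled, and dotted lines mark 2-fold. Dnaja1, Hspa4 and Bag2 have the widest spans, and for 16 of the 26 genes the probes lie within 1 log2 unit of each other.

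The heat shock element was searched for in the 250 bases before each RefSeq start on GRCm38.p6, with 38 of the 47 members matched. Hsf1, Hspa8, Hspa9, Hspa13, Hsp90aa1, Hsp90ab1, St13, Cct4 and Cryab were not matched. The 3-unit form was GAANNTTCNNGAA or TTCNNGAANNTTC, which are reverse complements and so cover both strands. The 2-unit form was GAANNTTC or TTCNNGAA, each its own reverse complement and each contained in a 3-unit form. The 2-unit form was present in 15 of the 38 matched members (39.5%) and in 14.5% of the 27025 genes with a promoter. The 3-unit form was present in 3 members (7.89%), Hspd1, Hspe1 and Dnajb6, and in 0.514% of all genes. The matches of Hspd1 and Hspe1 are the same bases read on opposite strands, so that stretch is counted for both genes. Hspa1a and Hspa1b, with nearly identical windows, are likewise both counted for the 2-unit form.

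The element occurred on both sides of the 2-fold line. Of the 12 matched members higher with either urine, 5 held the 2-unit form, namely Hspa1a, Hspa1b, Hsph1, Dnaja1 and Dnaja4, and 0 held the 3-unit form. Of the 26 other matched members, 10 held the 2-unit form and 3 the 3-unit form. The windows of Hsph1, Hspe1, Dnajb6 and Bag3 are printed because they span these cases, with matches in capitals. They lie at chr5:149636337-149636586 (minus strand), chr1:55087898-55088147 (plus strand), chr5:29735648-29735897 (plus strand) and chr7:128523333-128523582 (plus strand) on GRCm38.p6.
Hsph1: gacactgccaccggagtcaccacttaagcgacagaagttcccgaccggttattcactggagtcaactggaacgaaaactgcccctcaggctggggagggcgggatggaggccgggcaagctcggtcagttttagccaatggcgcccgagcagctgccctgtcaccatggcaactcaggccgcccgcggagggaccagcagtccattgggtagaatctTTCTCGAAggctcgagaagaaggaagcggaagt
Hspe1: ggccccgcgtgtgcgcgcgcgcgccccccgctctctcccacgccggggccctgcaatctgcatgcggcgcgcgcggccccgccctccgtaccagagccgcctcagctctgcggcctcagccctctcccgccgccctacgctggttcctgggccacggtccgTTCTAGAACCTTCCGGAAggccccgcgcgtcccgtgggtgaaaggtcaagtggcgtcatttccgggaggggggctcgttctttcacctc
Dnajb6: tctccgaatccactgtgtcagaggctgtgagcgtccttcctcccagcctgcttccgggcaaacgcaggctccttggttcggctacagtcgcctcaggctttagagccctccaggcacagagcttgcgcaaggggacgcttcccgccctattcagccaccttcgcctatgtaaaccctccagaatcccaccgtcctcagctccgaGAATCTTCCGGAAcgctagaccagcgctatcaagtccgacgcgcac
Bag3: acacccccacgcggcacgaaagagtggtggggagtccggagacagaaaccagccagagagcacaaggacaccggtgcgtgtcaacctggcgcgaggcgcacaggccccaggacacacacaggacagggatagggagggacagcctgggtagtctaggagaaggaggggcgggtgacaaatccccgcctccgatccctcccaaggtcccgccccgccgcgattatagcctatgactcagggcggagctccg
Hsph1 (2.04 with MRL/MpJ urine) has 1 match, whose first base lies 33 bases before this start. Hspe1 (0.71) has 2 overlapping 3-unit matches, the first of them starting 89 bases before, and 215 of its 250 bases are shared with the window of Hspd1 (0.27). Dnajb6 (-0.26) has a 3-unit match. Bag3 (2.24) has none in this window, and nor do Hspa4 and Dnajb1. A match is a description of letters and was not tested as a binding site.

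Between the urines no member was past 2-fold. Over all genes 0.239% were higher with lpr urine than with MRL/MpJ urine and 0.0545% were lower, which is 35 and 8 of 14668. The members' median difference was 0.03, and it ran from -0.32 for Hspa4l to 0.39 for Hspa4. Hspa4 and Hspa2 (0.36) were furthest above 0. All 4 measured probes of Hspa4 were between 0.31 and 0.39. Hspa1a was at 0.13, Hspa1b at 0.10, Hsp90aa1 at -0.17, Dnajb1 at -0.17 and Bag3 at 0.07. The 4 mitochondrial genes were between 0.03 and 0.13. Without replicates the data cannot show whether differences of this size would recur.

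Other genes of protein folding were taken from 6 fixed lists of 102 genes, also chosen with earlier results of these data known. With MRL/MpJ urine 5 of the 92 measured were higher and 10 lower, with a median of -0.22. With lpr urine 6 of 93 were higher and 12 lower, with a median of -0.33. The shares higher, 5.43% and 6.45%, were below those of all genes. The shares lower, 10.9% and 12.9%, were close to the 12.0% and 13.0% of all genes.

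Ubb, a stress-induced polyubiquitin gene, read 276.8 with PBS, 712.5 after MRL/MpJ urine and 761.1 after lpr urine. The log2 difference was 1.36 and 1.46, and both of its measured probes were past 2-fold with either urine. Under spike-in scaling these differences are smaller by the shift given above.

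The 14 other mitochondrial chaperones and proteases had a median of -0.58 after MRL/MpJ urine and -0.56 after lpr urine. Of these, 3 (21.4%) were lower with both urines and none higher, against 12.0% and 13.0% lower among all genes. Grpel1, the exchange factor of mortalin, read 13.4 with PBS, 5.00 after MRL/MpJ urine and 4.93 after lpr urine, a difference of -1.42 and -1.44. The proteases Lonp1 and Clpp were at -1.31 and -1.24 with MRL/MpJ urine. Grpel1 thus lay on the same side as its partner Hspa9.

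Of all genes, 12.0% were lower after MRL/MpJ urine and 13.0% after lpr urine. Among 23 other co-chaperones 4 (17.4%) were lower and none higher with either urine. They were Bag5 (-1.19 and -1.37), Unc45a (-1.22 and -1.24), Tomm70a (-1.31 and -1.32) and Nudcd3 (-1.13 and -1.19). Of 16 chaperones of the endoplasmic reticulum none was past 2-fold with MRL/MpJ urine, and the list median was 0.01. With lpr urine Hspa5, the HSP70 BiP, was just past it on its read probe, at 1.00. That probe was the lowest of 3 measured, and the highest was at 2.53 with lpr urine. The read probe had a scaled signal of 43.7 with PBS, 66.0 after MRL/MpJ urine and 87.5 after lpr urine. Dnajc10 was lower with lpr urine, at -1.04. Of the prefoldin, CCT cofactor and tubulin cofactor genes, Pdcl was higher (1.25 and 1.06) and Tbcc lower (-2.21 and -2.19) with both urines. Cct6a, kept in that list although it encodes a subunit of the CCT ring itself, was lower with lpr urine alone (-1.05). Its other measured probe was at -0.40 with lpr urine.

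Markers of spleen cell types were present and moved with the comparison. All 6 B cell markers and all 6 T cell markers were well above background on every array. The B cell list had a median difference of 0.96 after MRL/MpJ urine and 0.92 after lpr urine, and the T cell list -0.06 and 0.04. Monocyte and macrophage markers were at 0.98 and 0.94, neutrophil markers at 0.75 and 0.87, NK cell markers at 0.64 and 0.59, erythroid markers at 0.74 and 0.86, and platelet markers at 0.52 and 0.76. The summed scaled signal of the 6 neutrophil markers was 280.3 with PBS, 478.2 after MRL/MpJ urine and 503.2 after lpr urine. That of the 4 NK cell markers was 4.90, 27.1 and 29.7 in the same order. Single NK cell markers ran from -0.52 to 2.68 after MRL/MpJ urine. The lowest T cell marker difference was -1.65 and -1.69, with the other 5 markers within 2-fold. The part of these shifts in the chaperone results was not tested. Of 6 urinary tract epithelium markers, Upk1b, Upk2, Upk3a, Krt5 and Umod were not well above background on any array. Nor were the endothelial markers Cdh5 and Tek or the stromal marker Col3a1.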

How the data were processed

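Gene expression of cultured spleen cells was measured on 3 single-colour (Cy3) Agilent arrays of 1 slide and 1 scan, 1 array per condition. Per the file headers and the submitters' processing notes, the deposited intensity values come from Agilent Feature Extraction 12.0.3.1, which subtracted background and detrended within each array; values were not normalised between arrays. From the processed signal, spots flagged as outliers and controls were left out, spots of a probe were averaged, and the log2 of the array's 75th percentile was subtracted from each log2 signal. Of 56605 probes, 56599 were kept. A gene was read from the probe well above background on most arrays, ties going to the brighter one.

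Probe positions are those of the files (mm9, NCBI build 37). Promoters and symbols are from RefSeq tables on GRCm38.p6, used with no conversion between builds. A gene counted as higher or lower at a 2-fold difference when well above background on both arrays. Members at least 2-fold apart in any pair of arrays were described in depth, the others by class with ranges. The members and lists were chosen with earlier results of these data known. With 1 array per condition, no test was run, and the number of arrays limits the precision. The alternatives were scaling to the median or to 8 spike-in probes, quantile normalization, normexp correction of mean signal and local background (offset 50), the mean of a gene's probes, no filter on dim probes, and a probe on a RefSeq mRNA, the last added after the data were seen. The steps were tested on simulated data. Python 3.11.15, numpy 2.4.6, pandas 2.3.3, R 4.3.3 and limma 3.58.1 were used. One gene of the fixed lists is not reported here.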

Additional observations from a re-analysis of the deposited data

How the results depend on the processing

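Scaling moved the counts most. With median scaling, 7 members were lower in the MRL/MpJ urine comparison and 6 in the other, and the medians were -0.094 and -0.056, when 22.7% and 24.2% of all genes were lower and their medians were -0.34 and -0.36. With spike-in scaling, 6 and 6 were higher and 18 and 19 lower, the medians were -0.63 and -0.66, and the median between the urines was -0.061. Quantile normalization gave a median of 0.25 with lpr urine. With normexp correction, 9 were higher and 1 lower with MRL/MpJ urine (median 0.15), 1 was lower with lpr urine (median 0.077), and the median between the urines was -0.049. Averaging a gene's probes gave medians of 0.36 and 0.44 and turned Bag2 to -0.15 and -0.24, and Dnajb5 to 0.19 with lpr urine. Probes on RefSeq mRNAs, an alternative chosen after seeing the data, gave medians of 0.13 and 0.040 and turned Hspa4 to -0.39 and -0.063 and Bag2 to -1.48 and -1.60. Median and spike-in scaling move every difference in a comparison by 1 constant. Against PBS it was -0.37 and -0.39 for the median, and -0.90 and -0.99 for the spike-ins. The construction of the probe settings also shows the cause of their moves. What moved the values under quantile normalization and normexp correction was not tested. The remaining 41 values of counts and medians kept their direction and stayed within the limits set for them.

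No paired analysis was possible because there was 1 array per condition, and for the same reason leaving out a replicate was not run. Signal over background limits Cryab, Bag2, Hspa13 and Hspa2, which read near or under the 75th percentile of an array, and the number of arrays limits everything else.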

Other observations

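Other folding genes were past 2-fold on the read probe with another probe elsewhere. Dnajb14, an HSP40 of the endoplasmic reticulum membrane, had a scaled signal of 1.68 with PBS, 34.6 after MRL/MpJ urine and 47.4 after lpr urine, a log2 difference of 4.36 and 4.82, while its other measured probe was at 0.31 and 0.87. Tbce, a tubulin cofactor, read 11.6, 52.7 and 53.2 in the same order, at 2.18 and 2.20, with the lowest of its 3 probes at -0.78 and -0.66. Sqstm1, the autophagy receptor p62, was lower on its read probe, at -1.13 and -1.09, and its highest probe was at 3.41 and 3.00. The direction of Sqstm1 and Tbce thus depends on the probe.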
